A study of Homo sapiens with 12 samples.

Results

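The 10 genes described here encode transcription factors that set lung and epithelial lineages: *NKX2-1*, *FOXA1*, *FOXA2*, *SOX2*, *SOX4*, *SOX9*, *GATA2*, *GATA3*, *GATA6* and *HNF4A*. They were taken by symbol, through the GENCODE v44 annotation, from the 58302 Ensembl gene identifiers of the count table, and each symbol matched 1 identifier. RNA was sequenced from 12 libraries of MIB1-iKO cells, a single-cell clone of the lung cancer line NCIH838 in which doxycycline (Dox) induces Cas9 and thereby knockout of *MIB1*, a ubiquitin ligase gene. All cells carried the inducible Cas9 and the *MIB1* guide RNA and all were held for 3 days in 50 nM LDN, an inhibitor of BMP type I receptors, and those given 0.5 µg/mL Dox over this time are the MIB1 KO cells, the others the MIB1 WT cells. Next came 24 hours of 10 ng/mL BMP4, for which LDN was kept in the BMP-off groups and replaced by DMSO in the BMP-on groups. This gave 4 groups of 3 libraries: MIB1 WT BMP-off, MIB1 WT BMP-on, MIB1 KO BMP-off and MIB1 KO BMP-on. Cells of all 4 groups thus received BMP4, and the response to BMP below is the difference of BMP-on from BMP-off. Other effects of keeping or withdrawing LDN cannot be told apart from it. Dox was given to all KO and to no WT cells, and what Dox or DNA cutting by Cas9 does cannot be told apart from *MIB1* loss.

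Lineage transcription factors bind enhancers of cell type genes and keep a cell in its lineage. In the lung, NKX2-1 specifies the respiratory epithelium and drives surfactant genes. FOXA1 and FOXA2 are pioneer factors that open closed chromatin in endoderm-derived epithelia, and GATA6 works with them in the developing gut and lung. SOX2 marks the proximal airway and SOX9 the distal tips of the branching lung, while SOX4 is expressed in progenitors of many tissues. GATA2 is best known from blood progenitors and endothelium, GATA3 from T cells and luminal breast epithelium, and HNF4A from liver and gut. BMP4 is a ligand of the TGF-β family whose receptors phosphorylate SMAD1, SMAD5 and SMAD9, and the ID genes are its usual direct targets.

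Between 19124010 and 29498000 reads were counted on genes per library. *MIB1* in KO cells was at 19.7% of its WT level with BMP-on (31.0 to 33.0 against 153 to 175 CPM) and at 21.4% with BMP-off (32.5 to 34.4 against 144 to 176 CPM), with log2 fold changes of -2.34 and -2.23 (SE 0.07 in both, adjusted p = 9.70e-12 and 1.85e-11). *ID1* rose with BMP-on by 0.94 (SE 0.11) on the log2 scale in WT cells and by 1.08 (SE 0.11) in KO cells (adjusted p = 0.000273 and 1.87e-05). Here and below, CPM are reads-per-million on the TMM scale of edgeR, which serves to compare libraries within a gene. Adjusted p values come from the quasi-likelihood test of edgeR over 17188 genes (Benjamini-Hochberg), and genes with 0.05 or less count as called. The labels do not say whether the replicates were separate cultures, so these p values measure the spread between these libraries. In RNA from whole cultures, fewer cells expressing a gene and less of its RNA per cell cannot be told apart.

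Promoter sequences are shown for the called factors held in the RefSeq promoter table of GRCh38.p14, because GGCGCC is a GC-rich motif that SMAD1 and SMAD5 complexes bind and BMP4 was the treatment. Each sequence is the 250 bases before an annotated start on the strand of the gene, with GGCGCC in capitals, and none of the 4 overlaps an exon of its own gene. *GATA2* has 2 starts in the table, one at the 5′ end of the gene (chr3:128493202-128493451, minus strand) and one inside it (chr3:128488531-128488780, minus strand). The windows of *GATA6* (chr18:22169339-22169588) and *SOX4* (chr6:21593501-21593750) lie on the plus strand.
GATA2, outer start: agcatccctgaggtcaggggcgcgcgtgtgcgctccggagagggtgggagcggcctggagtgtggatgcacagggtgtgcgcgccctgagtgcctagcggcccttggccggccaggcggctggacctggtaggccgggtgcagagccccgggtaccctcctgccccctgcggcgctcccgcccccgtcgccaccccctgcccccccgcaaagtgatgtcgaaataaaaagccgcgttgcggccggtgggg
GATA2, inner start: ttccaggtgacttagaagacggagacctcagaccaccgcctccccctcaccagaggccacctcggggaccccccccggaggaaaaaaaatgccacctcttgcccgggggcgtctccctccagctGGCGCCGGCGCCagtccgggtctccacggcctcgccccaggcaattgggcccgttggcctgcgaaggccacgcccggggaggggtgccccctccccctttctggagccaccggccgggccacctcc
GATA6: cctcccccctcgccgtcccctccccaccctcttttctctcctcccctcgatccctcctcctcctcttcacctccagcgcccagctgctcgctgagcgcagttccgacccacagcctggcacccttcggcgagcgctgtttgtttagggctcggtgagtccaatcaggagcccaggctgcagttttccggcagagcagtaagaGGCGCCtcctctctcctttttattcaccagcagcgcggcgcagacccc
SOX4: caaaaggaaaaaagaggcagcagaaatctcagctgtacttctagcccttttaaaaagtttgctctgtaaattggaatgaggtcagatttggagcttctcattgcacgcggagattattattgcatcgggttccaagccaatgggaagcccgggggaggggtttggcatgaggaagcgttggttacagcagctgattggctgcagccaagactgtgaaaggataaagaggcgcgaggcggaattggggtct
GGCGCC reads the same on both strands. It was found 2 times, side by side, before the inner start of *GATA2* and 1 time in the *GATA6* window, and it was not among the letters of the outer *GATA2* window or the *SOX4* window. Of 35116 promoter windows of the same length, 16.4% held it. A second motif bound by SMAD proteins, CAGAC, searched on both strands, was found once before the inner *GATA2* start and once in the *GATA6* window, against 38.0% of all windows. The GATA motif GATAA, also searched on both strands, was found once, in the *SOX4* window, against 20.4% of all windows. Outside the windows shown, GGCGCC was also present before some starts of *NKX2-1* and *GATA3*, which had almost no reads. It was absent before the starts of *FOXA1*, *SOX2*, *HNF4A* and the BMP target *ID1*. The inner *GATA2* window has 71.2% GC and that of *GATA6* 64.4%, beside a median of 58.0% over all windows. Without GGCGCC, the outer *GATA2* window has 72.8% GC and that of *SOX4* 48.8%. The *NKX2-1* window that holds GGCGCC has 49.6%. These matches are descriptions of the letters and not of binding, and a link to the response was not tested. *SOX9* is the other called factor.

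The factors fell into those that were well expressed and those with no or almost no reads. Between genes, levels are compared as RPKM, the authors' reads-per-kilobase-per-million values. *GATA2* was the highest, with a mean of 20.4 RPKM over the 12 libraries (8.68 to 38.9), above 88.9% of the 34618 identifiers with at least 1 read. It was followed by *SOX4* at 7.11 RPKM (6.08 to 8.47), *SOX9* at 3.27 RPKM (1.88 to 5.18) and *GATA6* at 2.38 RPKM (2.01 to 3.13). *SOX9* and *GATA6*, neighbours in this order, overlapped in their ranges, and their order depended on the group. With WT BMP-off, *GATA6* (2.07 ± 0.044 RPKM, SD, n = 3) lay just above *SOX9* (1.96 ± 0.071). In WT cells with BMP-on, *SOX9* (3.72 ± 0.032) was above *GATA6* (2.33 ± 0.178), and in the KO BMP-off group the ranges of these genes overlapped.

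*FOXA1* was present at a trace, with 6 to 17 reads per library and a mean of 0.169 RPKM. It lay below *GATA6* in every library, and its range reached down to that of *GATA3*, which had 0 to 8 reads per library. *HNF4A* had 2 to 6 reads in each library, and the ranges of *GATA3* and *HNF4A* overlapped. *NKX2-1* had 1 read in all 12 libraries together, in MIB1 WT BMP-on replicate 2. *FOXA2* and *SOX2* had 0 reads in every library. Over the 302293110 reads counted, a count of 0 allows up to 3 reads, or 0.00992 CPM, and this limit covers counting error only. The factor that specifies the lung, both FOXA pioneer factors and the proximal airway factor were therefore listed at a trace or at 0 reads in a line labelled as lung, in each of the 4 groups.

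**Figure D1:**
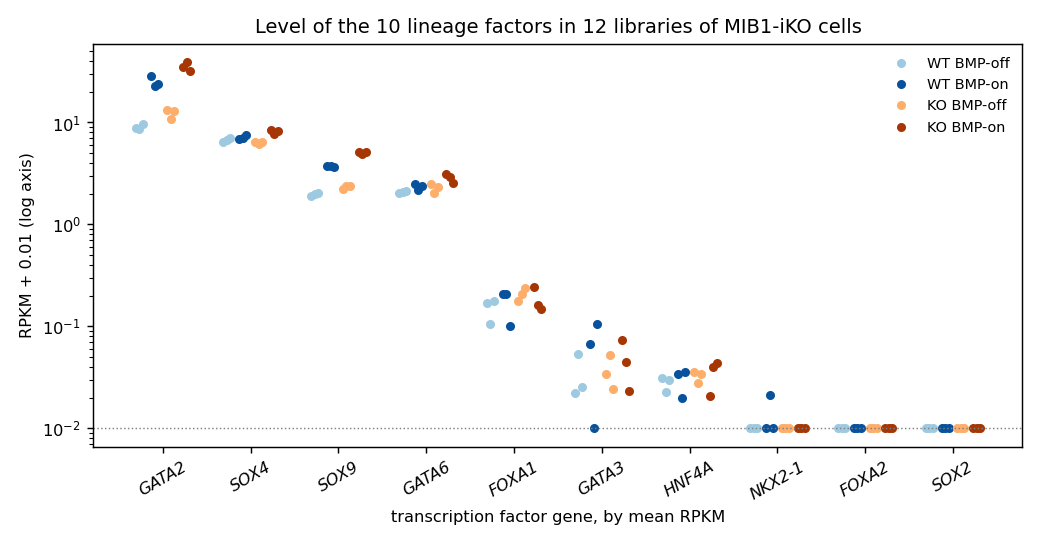
Level of each of the 10 factors in each library, as RPKM + 0.01 on a log axis, with a point per library coloured by group and the genes in the order of their mean. *GATA2*, *SOX4*, *SOX9* and *GATA6* lie above 1 RPKM in all libraries, whereas *FOXA2* and *SOX2* lie on the dotted line that marks 0 reads.

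The cells expressed most of the listed epithelial markers and few of those of the surfactant-making, basal or gastric and hepatic lists. Keratin 18, a keratin of simple epithelia, was at 71.1 to 85.4 RPKM and keratin 8, its partner, at 21.8 to 43.2 RPKM. On average 5 of 6 epithelial markers were above 1 RPKM, whereas *KRT19*, a further keratin of this list, did not pass the filter on low counts. Of 50 other epithelial and lung transcription factors 28 passed it, and *GRHL2*, *OVOL1*, *OVOL2*, *EHF* and *ELF5* did not. Of 11 genes of alveolar type 2 and club cells, 1 was above 1 RPKM. This was *ABCA3*, a lipid transporter of lamellar bodies, at 7.90 to 12.1 RPKM. The surfactant gene *SFTPC* had 9 reads in all libraries together, *SFTPB* 7 and *SFTPA1* 1. No gene of the basal and squamous list (0 of 6) or of the gastric and hepatic list (0 of 10) passed the filter on low counts, and *TP63*, the basal cell factor, had 22 reads in all. Of 5 alveolar type 1 genes, *CAV1* (44.1 to 73.4 RPKM) and *AGER* (1.26 to 3.06 RPKM) were above 1 RPKM on average, while *PDPN* and *HOPX* had 0 reads. All 4 ciliated cell genes passed the filter, and *FOXJ1*, the factor that drives ciliated cells, was at 4.32 to 7.69 RPKM and *TPPP3* at 1.27 to 3.88 RPKM. The gastric and hepatic list was read because HNF4A and FOXA factors are known to drive such genes in lung tumors without NKX2-1.

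The listed genes around *NKX2-1*, *SOX2*, *GATA3* and *HNF4A* had few or no reads as well, whereas *MIPOL1*, beside *FOXA1*, was at 1.61 to 2.22 RPKM. *SFTA3* and *NKX2-1-AS1*, which cover 32.6% of the exonic bases of *NKX2-1* on its strand and 12.7% on the other, both had 0 reads in every library. *NKX2-8*, next to *NKX2-1*, had 1 read in all. *SOX2-OT*, the long noncoding RNA in which *SOX2* lies, had 0 to 5 reads per library, and *GATA3-AS1* and *HNF4A-AS1* had none. In all, 13 divergent or neighbouring transcripts of the 10 factors were listed, of which 5 had 0 reads everywhere and 4 passed the filter on low counts. *FOXA2* and *SOX2* themselves share no exonic base with another gene of the annotation, whereas *NKX2-1* does, as given above.

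Of the 10 factors, 5 passed edgeR's filter on low counts and were tested: *GATA2*, *SOX9*, *SOX4*, *GATA6* and *FOXA1*. The other 5 were *NKX2-1*, *FOXA2*, *SOX2*, *GATA3* and *HNF4A*.

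*GATA2* (ENSG00000179348, chr3:128479427-128493201, minus strand, GRCh38) gave the strongest response to BMP. In WT cells with BMP-off its levels were 31.1, 31.4 and 34.5 CPM, and with BMP-on they were 103, 82.4 and 85.8 CPM. Every BMP-on library was far above every BMP-off library. KO cells had 47.6, 37.7 and 47.4 CPM with BMP-off and 127, 142 and 116 CPM with BMP-on, again with a wide gap between the groups. BMP raised *GATA2* 2.80-fold in WT cells (log2 fold change 1.48, SE 0.11, adjusted p = 7.04e-06) and 2.90-fold in KO cells (1.54, SE 0.11, adjusted p = 9.21e-07). The difference between these responses was 0.05 (95% interval -0.28 to 0.38, adjusted p = 0.911), and this interval includes larger responses in either genotype.

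*SOX9* (ENSG00000125398, chr17:72121020-72126416, plus strand) had replicates close to each other in each group. Its levels were 7.01, 7.52 and 7.59 CPM in WT cells with BMP-off and 14.2, 14.2 and 14.0 CPM with BMP-on. In KO cells they were 8.30, 8.60 and 9.04 CPM with BMP-off and 19.9, 18.9 and 19.5 CPM with BMP-on. All 4 groups were apart from each other, in the order WT BMP-off, KO BMP-off, WT BMP-on and KO BMP-on, and *GATA2* kept the same order with no overlap. BMP raised *SOX9* 1.92-fold in WT cells (log2 fold change 0.94, SE 0.08, adjusted p = 1.89e-06) and 2.25-fold in KO cells (1.17, SE 0.08, adjusted p = 3.29e-08). The response was larger by 0.23 in KO cells, with a 95% interval of -0.0024 to 0.46 before adjustment and an adjusted p of 0.472.

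*SOX4* (ENSG00000124766, chr6:21593751-21598619, plus strand) moved little in WT cells. It was at 35.5, 38.1 and 39.7 CPM with BMP-off and at 38.8, 40.2 and 43.1 CPM with BMP-on, and these groups overlapped. In KO cells it was at 36.0, 33.0 and 36.2 CPM with BMP-off and at 48.4, 43.8 and 47.1 CPM with BMP-on, with no overlap. In WT cells the log2 fold change with BMP was 0.11 (SE 0.06, adjusted p = 0.474), whereas *SOX4* rose by 0.41 (SE 0.06, adjusted p = 0.000301) in KO cells. The difference between these responses was 0.30 (95% interval 0.10 to 0.49) with an adjusted p of 0.250, so it did not pass the test over all genes.

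*GATA6* (ENSG00000141448, chr18:22169589-22202528, plus strand) was at 7.62, 7.78 and 8.004 CPM in WT cells with BMP-off and at 9.49, 8.18 and 9.02 CPM with BMP-on. KO cells had 9.21, 7.35 and 8.75 CPM with BMP-off and 12.03, 11.2 and 9.67 CPM with BMP-on. In both genotypes the BMP-on libraries lay above the BMP-off libraries, by a narrow margin. The response was 0.19 (SE 0.11, adjusted p = 0.464) in WT cells, and *GATA6* rose by 0.38 (SE 0.11, adjusted p = 0.0197) in KO cells. The latter call was the least stable: it was kept in 17 of 25 alternative analyses, and the adjusted p was 0.0836 without KO BMP-off replicate 2, 0.115 without KO BMP-on replicate 1 and 0.0588 without KO BMP-on replicate 2. The antisense gene *GATA6-AS1* and a further gene cover 10.9% of the exonic bases of *GATA6* on the other strand, and whether the counting used strand is not stated.

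*FOXA1* (ENSG00000129514, chr14:37589552-37596059, minus strand) was tested on 28 to 41 reads per group. Its levels overlapped between all groups, from 0.251 to 0.651 CPM. The difference of BMP-on from BMP-off was 0.21 log2 units among the WT libraries (95% interval -0.58 to 1.01) and -0.11 among the KO libraries (-0.85 to 0.63). A change was not detectable at this depth, and the intervals are wide.

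**Figure D2:**
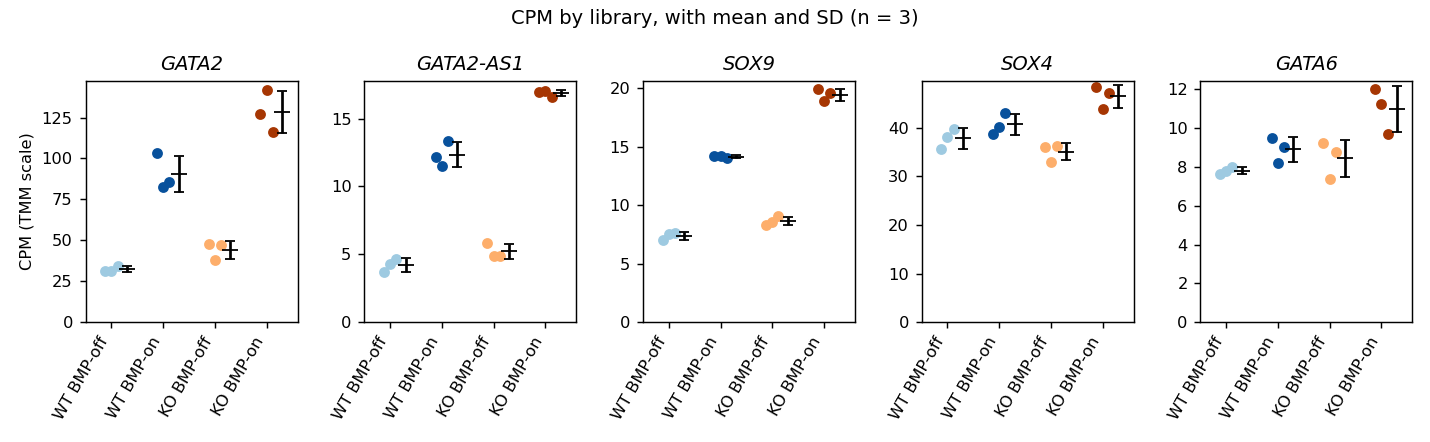
CPM of *GATA2*, its antisense transcript *GATA2-AS1*, *SOX9*, *SOX4* and *GATA6* in each library, on axes that start at 0. The mean and SD of the 3 libraries of each group stand beside the points. *GATA2*, *GATA2-AS1* and *SOX9* step up with BMP-on in both genotypes, and for *SOX4* the step is seen in KO cells, where BMP-on libraries lie between 43.8 and 48.4 CPM.

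In WT cells, BMP therefore called 2 of the 5 tested factors, both higher (*GATA2* and *SOX9*), where 3.92% of all 17188 genes were called in either direction and 1.91% higher. In KO cells it called 4 of 5, all higher (*GATA2*, *SOX9*, *SOX4* and *GATA6*), where 22.0% of all genes were called and 11.1% higher. The groups did not overlap for 3 of the 5 in WT cells (*GATA2*, *SOX9* and *GATA6*, all higher, as for 11.2% of all genes) and for 4 of the 5 in KO cells (all higher, as for 17.9% of all genes). With a 2-fold change also required, *GATA2* was called in WT cells (0.425% of all genes), and *GATA2* and *SOX9* in KO cells (1.66%). The median log2 fold change of the tested factors was 0.21 in WT and 0.41 in KO cells, beside 0.00 and 0.01 for all genes. For *GATA2* and *SOX9* the BMP response was called in 25 of 25 alternative analyses in each genotype.

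With BMP-on, *MIB1* KO cells had more *SOX9* and more *GATA2* than WT cells. *SOX9* was 1.37-fold higher (19.4 ± 0.526 against 14.2 ± 0.096 CPM, SD, n = 3, log2 fold change 0.46, SE 0.07, adjusted p = 0.00139). *GATA2* was 1.42-fold higher (128 ± 12.7 against 90.5 ± 11.1 CPM, log2 fold change 0.51, SE 0.10, adjusted p = 0.0164). The difference of *SOX9* was called in 25 of 25 alternatives. That of *GATA2* was called in 21 of 25, and the adjusted p was 0.0631 without WT BMP-on replicate 2, 0.0705 without WT BMP-on replicate 3 and 0.0700 without KO BMP-on replicate 2. *SOX4* and *GATA6* lay above WT in all KO libraries, with differences of 0.19 (SE 0.06, adjusted p = 0.143) and 0.31 (SE 0.11, adjusted p = 0.163) that did not pass the test. Thus 2 of 5 tested factors were called, where 3.67% of all genes were called and 1.32% higher. The groups did not overlap for 4 of the 5, all higher in KO cells, as for 11.4% of all genes.

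With BMP-off, none of the 5 was called between KO and WT cells. In this comparison 7 of 17188 genes were called in all (0.0407%), and 10.2% had an unadjusted p under 0.05. *GATA2* was nevertheless above WT in each KO library (44.2 ± 5.65 against 32.3 ± 1.86 CPM), with a difference of 0.45 (SE 0.11, adjusted p = 0.292) close to that seen with BMP-on. *SOX9* was also above WT in each KO library (8.65 ± 0.373 against 7.37 ± 0.320 CPM, difference 0.23, SE 0.08, adjusted p = 0.392). Non-overlap in this direction was found for 5.76% of all genes. The adjusted p of *GATA2* depended on the tool, at 0.0200 with DESeq2, which called it. Counts of a gene also moved with the GC content of its transcript in some libraries, most in the KO BMP-off group, where Spearman's rho of the deviation with GC was -0.60 for replicate 2 and 0.59 for replicate 3. The *GATA2* transcript has 60.4% GC, among the highest of the factors, and *GATA2* was lowest among the KO BMP-off libraries in replicate 2. With a GC correction its KO against WT difference with BMP-off was 0.56 and the adjusted p 0.0514. *SOX4* and *GATA6* overlapped between the genotypes with BMP-off (differences of -0.11 and 0.12), as did *FOXA1* (0.46, SE 0.37). No factor had a called interaction of *MIB1* KO and BMP, which was called for 16 genes in all (0.0931%, and 10.6% had an unadjusted p under 0.05). These shares of all genes depend on single libraries: without 1 library, 2 to 50 genes were called with BMP-off (50 without KO BMP-off replicate 3) and 4 to 236 in the interaction (236 without WT BMP-off replicate 1).

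**Figure D3:**
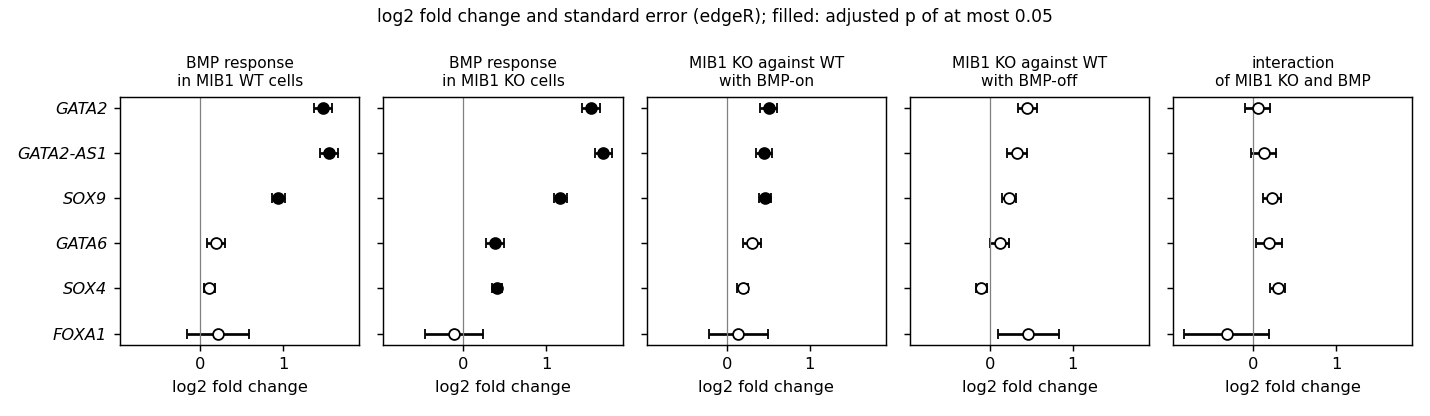
log2 fold change (points) and standard error (bars) of the 5 tested factors and *GATA2-AS1* in the 5 comparisons, with filled points for an adjusted p of at most 0.05 from edgeR. Filled points are seen for *GATA2* and *SOX9* in both BMP responses and with BMP-on. For *SOX4* and *GATA6* they are seen in the BMP response of KO cells only, and no factor has one with BMP-off or in the interaction.

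*GATA2-AS1* (ENSG00000244300, chr3:128489212-128502970, plus strand) is a long noncoding RNA on the other strand from *GATA2*. It starts inside *GATA2*, between the inner and outer starts, and runs across the outer start and beyond the gene. It moved as *GATA2* did. It was at 3.67, 4.30 and 4.64 CPM in WT cells with BMP-off and at 12.2, 11.5 and 13.3 CPM with BMP-on, and at 5.86, 4.90 and 4.88 CPM against 17.0, 17.0 and 16.6 CPM in KO cells. BMP raised it by 1.56 on the log2 scale in WT cells (SE 0.11, adjusted p = 2.33e-07) and by 1.69 in KO cells (SE 0.10, adjusted p = 1.79e-08). With BMP-on it was higher in KO cells by 0.45 (SE 0.09, adjusted p = 0.01002), a call lost without WT BMP-on replicate 2 (adjusted p = 0.0705). Its exons share 1.6% of the exonic bases of *GATA2*, which in turn make up 2.7% of its own. *GATA6-AS1*, which runs away from *GATA6*, had few reads (3 to 25 per library) and rose with BMP in KO cells by 1.66 (SE 0.39, adjusted p = 0.00642), with 0.94 (SE 0.47, adjusted p = 0.363) in WT cells. The other 2 neighbours that were tested, *CASC15* beside *SOX4* and *MIPOL1* beside *FOXA1*, were not called in any comparison.

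The genes whose levels most resembled those of each called factor over the 12 libraries were sought among 12797 genes with a mean of at least 50 counts, by Pearson's r of log2 CPM. For *GATA2* these were *SMAD7* (r = 0.994), an inhibitory SMAD, *KANK4* (r = 0.992) and *ID2* (r = 0.991), an inhibitor of DNA binding. For *SOX9* they were *ACTC1* (r = 0.996), cardiac actin, *ADAMTSL3* (r = 0.992) and *DLX2* (r = 0.991), a homeobox factor. *SOX4* was most like *LARP6*, *MYO7A* and *ZBED1* (r = 0.974, 0.973 and 0.968), and *GATA6* was most like the pseudogene *ECEL1P2*, *MAP2K3* and *YTHDF1* (r = 0.944, 0.934 and 0.934). Between the factors, r was 0.982 for *SOX9* and *GATA2*, 0.848 for *GATA2* and *GATA6* and 0.846 for *SOX4* and *SOX9*. All points share the same 4 groups and the same library scaling, so these values describe a common pattern and carry no test. Of 16 BMP target genes, 15 were tested. The list was chosen with earlier results of these data known, so its counts are a description and no independent check. With BMP, 12 of the targets rose in WT cells (as did 1.91% of all genes) and 13 in KO cells (11.1%), and none fell. Among those with a mean of at least 50 counts, the largest changes were those of *SMAD9* (2.41 in WT, 2.19 in KO), *DLX2* (1.803 and 2.37), *BAMBI* (1.35 and 2.31) and *HEY1* (1.43 and 2.31) on the log2 scale. *DLX3*, a target with a mean of 6.83 reads per library and named after its values were seen, rose by 3.76 in KO cells (SE 0.49, adjusted p = 4.73e-05). In WT cells *DLX3* changed by 1.39 (SE 0.58, adjusted p = 0.256), and its interaction was not called (adjusted p = 0.370).

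Relatives of the factors were called for BMP-on against BMP-off in KO cells and in no other comparison. Of 16 other SOX genes, 8 had 0 reads everywhere and 5 were tested. In WT cells none was called with BMP, and in KO cells 1 fell, *SOX7*, a factor of the endoderm and endothelium (log2 fold change -0.42, SE 0.12, adjusted p = 0.0198), where 22.0% of all genes were called. Among 16 other GATA, FOXA, HNF and NKX2 genes and GATA cofactors, 6 were tested. None was called in WT cells, and in KO cells 3 rose and 1 fell, or 4 of 6 beside the same 22.0%. The former were *ZFPM1*, a GATA cofactor (0.72, SE 0.24, adjusted p = 0.0422), *NKX2-4* (0.67, SE 0.13, adjusted p = 0.00167) and the repressor *TRPS1* (0.27, SE 0.08, adjusted p = 0.0241). *ZFPM2*, the other GATA cofactor of the FOG family, fell (-0.29, SE 0.07, adjusted p = 0.00448). In WT cells *ZFPM1* changed by 0.83 (SE 0.26, adjusted p = 0.0918) and *NKX2-4* by 0.48 (SE 0.14, adjusted p = 0.0626). *TRPS1*, *ZFPM2* and *SOX7* were at 0.08, -0.06 and -0.20 in WT cells (adjusted p = 0.705, 0.755 and 0.457). None of these genes had a called interaction, so a response in KO cells only was not shown. In KO cells with the GC correction, *NKX2-4* and *ZFPM1* were at 0.25 and 0.24 and were no longer called. Over all alternatives for KO cells, *ZFPM1* was called in 11 of 25, *TRPS1* in 17 and *SOX7* in 22. With a library left out, the adjusted p of *ZFPM1* reached 0.146 (without KO BMP-on replicate 1), and its log2 fold change was 0.46 without KO BMP-off replicate 2 and 1.07 without KO BMP-off replicate 3. That of *TRPS1* was over 0.05 without KO BMP-off replicate 1 or any KO BMP-on library (0.0546 to 0.0947), and that of *SOX7* without KO BMP-off replicate 1 (0.0555), KO BMP-on replicate 1 (0.0518) or KO BMP-on replicate 2 (0.0731).

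Of 50 other epithelial and lung transcription factors, 28 were tested. With BMP, 1 rose and 2 fell in WT cells and 5 rose and 5 fell in KO cells. With BMP-on 2 were higher and 3 lower in KO than in WT cells. Over all genes, 3.92% were called with BMP in WT cells, 22.0% in KO cells and 3.67% between genotypes with BMP-on. *KLF4*, a zinc finger factor of epithelial differentiation, rose by 0.64 in WT and by 0.98 in KO cells (SE 0.08 and 0.07, adjusted p = 8.60e-05 and 1.95e-07) and was higher in KO cells with BMP-on by 0.32 (SE 0.07, adjusted p = 0.0173), a call lost without WT BMP-on replicate 2 (0.118), WT BMP-on replicate 3 (0.0751) or KO BMP-on replicate 2 (0.110). Its relative *KLF5* fell with BMP in WT and in KO cells (log2 fold changes -0.17 and -0.35, SE 0.04 in both, adjusted p = 0.0397 and 2.39e-05). The call of *KLF5* in WT cells was kept in 12 of 25 alternatives. It was lost without 8 of the 12 libraries in turn (adjusted p up to 0.184, without WT BMP-on replicate 1). With BMP-on, *KLF5* was lower in KO than in WT cells (-0.26, SE 0.04, adjusted p = 0.00229). *FOXP4* (0.69, SE 0.14, adjusted p = 0.00403) and *TBX3* (0.57, SE 0.14, adjusted p = 0.00697) rose with BMP in KO cells. In WT cells *FOXP4* changed by 0.43 (SE 0.13, adjusted p = 0.123) and *TBX3* by 0.30 (SE 0.14, adjusted p = 0.317). In KO cells with the GC correction, *FOXP4* was at 0.38 and still called. Without KO BMP-on replicate 3 the adjusted p of *TBX3* in KO cells was 0.0505. The changes of *GRHL3* and *ELF3* were larger but rest on means of 14.3 and 20.2 reads per library, and they are named after their values were seen. *GRHL3*, a grainyhead factor of surface epithelia, rose by 1.51 in KO cells (SE 0.32, adjusted p = 0.00295). In WT cells *GRHL3* changed by 1.28 (SE 0.36, adjusted p = 0.0609), and its interaction was not called (0.23, adjusted p = 0.882). *ELF3*, an epithelial ETS factor, had log2 fold changes of -1.64 in WT cells (SE 0.25, adjusted p = 0.000899) and -1.31 in KO cells (SE 0.27, adjusted p = 0.00270).

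**Figure D4:**
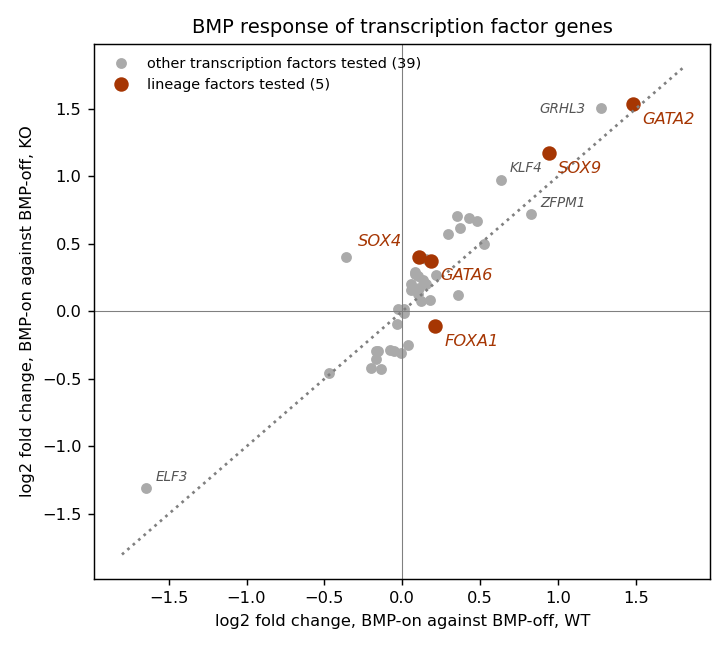
log2 fold change with BMP in WT cells (horizontal) and in KO cells (vertical) for the 5 tested factors and 39 other transcription factor genes of the lists, with a dotted line where both are equal. *GATA2* lies on the line at 1.48 and 1.54, *SOX9* and *SOX4* lie above it, and most other factors lie within 0.5 of 0 in WT cells.

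Markers of epithelial identity moved in both directions with BMP. *KRT7*, a keratin of glandular epithelium, rose by 0.55 in WT and by 0.85 in KO cells (adjusted p = 0.00331 and 2.31e-05). *KRT8* rose by 0.61 in KO cells (adjusted p = 0.00414) and changed by 0.28 in WT cells (adjusted p = 0.295). *EPCAM*, an adhesion molecule of epithelia, had log2 fold changes of -0.56 in WT cells and -0.61 in KO cells (adjusted p = 0.00795 and 0.00152), and without WT BMP-on replicate 1 its adjusted p in WT cells was 0.0519. *CAV1*, which is high in alveolar type 1 cells and in many other cells, changed by -0.35 in WT cells and by -0.59 in KO cells (adjusted p = 5.79e-05 and 5.58e-08). *TPPP3*, a tubulin-binding protein of ciliated cells, rose by 0.96 in KO cells (adjusted p = 0.000826) and changed by 0.40 in WT cells (adjusted p = 0.293). With BMP-on, *CAV1* was lower in KO than in WT cells (-0.32, SE 0.04, adjusted p = 0.000248). *TPPP3* was higher there (0.62, SE 0.16), with an adjusted p of 0.0494 close to the threshold. *KRT7*, *KRT8* and *EPCAM* were not called between the genotypes with BMP-on. Of 10 markers of immune, endothelial and mesenchymal cells, 5 were tested and 1 was above 1 RPKM on average, the collagen gene *COL1A1*, which made up most of the summed level of the list. That sum was 3.05 to 3.74 RPKM in WT cells with BMP-off and 5.09 to 5.33 with BMP-on, and 2.49 to 3.603 against 5.70 to 6.94 in KO cells. With BMP, none of the 10 was called in WT cells, where 3.92% of all genes were. In KO cells 2 rose and 1 fell, where 11.1% of all genes rose and 10.9% fell. *COL1A1* rose by 1.39 (SE 0.20, adjusted p = 0.000602). *PDGFRB*, a receptor of mesenchymal cells with a mean of 26.6 reads per library, rose by 0.92 (SE 0.25, adjusted p = 0.0141). *CDH5*, a cadherin of endothelium with 1 to 14 reads per library, fell (log2 fold change -2.28, SE 0.72, adjusted p = 0.0316), a call lost without KO BMP-off replicate 1 (0.119), KO BMP-on replicate 1 (0.121) or KO BMP-on replicate 2 (0.0844). *PDGFRB* and *CDH5* are named after their values were seen. *PECAM1* and *VWF*, which with *CDH5* define endothelium, where GATA2 is known to act, were at or below 0.115 RPKM in every library and had log2 fold changes of -0.59 and -1.16 in KO cells (adjusted p = 0.420 and 0.0856). *PTPRC*, which defines leukocytes, had 0 reads. In KO cells the mesenchymal genes *COL1A1* and *PDGFRB* were thus higher with BMP-on than with BMP-off, as *GATA2* and *SOX9* were. In WT cells *COL1A1* changed by 0.73 (SE 0.20, adjusted p = 0.0728) and *PDGFRB* by 0.23 (SE 0.23, adjusted p = 0.703). Their interactions of *MIB1* KO and BMP were not called (adjusted p = 0.446 and 0.480). Between KO and WT cells with BMP-on, neither *COL1A1* nor *PDGFRB* was called (0.36 and 0.15, adjusted p = 0.454 and 0.856 in edgeR). *COL3A1* and *ACTA2*, also on the list, did not pass the filter on low counts. The part of *COL1A1* and *PDGFRB* in the result was not tested.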

How the data were processed

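Counts of 12 RNA-seq libraries of MIB1-iKO cells (4 groups of 3) were used, with groups taken from the sample labels. The authors removed ribosomal reads, aligned the single-end reads to GRCh38 by GSNAP and used HTSeqGenie to count reads falling on RefSeq exons. The deposited counts are whole numbers, not normalized, for 58302 Ensembl identifiers, of which 57532 received a symbol from GENCODE v44. The deposited RPKM table was normalized between libraries by the authors, and it served for levels between genes and for alternatives. The protocol names a stranded and an unstranded library kit, and which was used is not given in the sources used here. Total counts were 19124010 to 29498000 per library.

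Tests used edgeR 4.0.16 in R 4.3.3 (TMM scaling, default filter on low counts, robust quasi-likelihood fit over 12 libraries) for 17188 genes in 5 comparisons. Adjusted p values are Benjamini-Hochberg within a comparison. Intervals are 95% intervals before adjustment, from the standard error and the degrees of freedom of the fit. On simulated counts with the same dispersion for all genes, the main fit was run without a GC trend. Counts with an added GC trend were fitted with the GC correction, so the main fit was not tested under such a trend. Alternatives were DESeq2 1.42.0, limma 3.58.1 (voom with quantile normalization, or log2(RPKM + 1) and log2(RPKM + 0.1)), other scalings and filters, only the groups compared, a replicate term, a GC correction (loess trend per library with a span of 0.4), a 2-fold threshold and each library left out in turn. Of 18 pairs of libraries with the same replicate number, 2 had a correlation of residuals above 0.1 (-0.187 to 0.189 over all pairs). This gives no clear sign of pairing by number, but it cannot show that the libraries were unpaired. Counts of replicates differed by 3.15 to 18.1 times the counting variance.

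The factors and lists were chosen with earlier results of these data known. Genes named from the other lists are up to 4 per list with the largest absolute log2 fold change among those called with a mean of at least 50 counts. From the list of neighbours, all that passed the filter on low counts are described. *TTC6*, *LINC00261* and *SOX9-AS1*, which did not pass it, were left out.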

Additional observations from a re-analysis of the deposited data

Results flagged for a closer look

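The difference in BMP response between MIB1 KO and WT cells passed the test for no lineage factor. Of the genes named beside them, it did for the BMP targets *BAMBI* and *HEY1*, by the interaction of *MIB1* KO and BMP in edgeR. The response of *BAMBI* was larger in KO cells by 0.96 on the log2 scale (SE 0.12, adjusted p = 0.00263) and that of *HEY1* by 0.88 (SE 0.13, adjusted p = 0.0112). The difference for *HEY1* was past 0.05 with the replicate term (adjusted p = 0.0509) and was called in 16 of 24 alternatives, with an adjusted p of up to 0.0753 when a library was left out (WT BMP-off replicate 3). With groups of 3 libraries, no search for outlying libraries was made.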

How the results depend on the processing

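Alternatives moved few calls of the factors, and none turned the direction of a called change. With a 2-fold change also required, 1 factor instead of 2 was called with BMP in WT cells, 2 instead of 4 in KO cells and 0 instead of 2 between KO and WT cells with BMP-on. In the last comparison 1 factor (*SOX9*) was left with log2(RPKM + 1) and no filter, and 1 to 2 when each library was left out in turn. Between KO and WT cells with BMP-off, 1 factor (*GATA2*) was called instead of 0 with DESeq2, with no filter on low counts (adjusted p = 2.75e-08) and with the GC correction and replicate block together (adjusted p = 0.0398). The interaction of *GATA2* was -0.12 with the GC correction and -0.11 with the GC correction and replicate block, and between -0.052 and 0.15 with libraries left out. With libraries left out, the uncalled values of *FOXA1* also changed sign, between -0.41 and 0.041 for BMP in KO cells and between -0.16 and 0.33 for the genotypes compared with BMP-on.

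*SOX4* was called between KO and WT cells with BMP-on in 3 of 25 alternatives (lowest adjusted p 0.0406, with only the groups compared). The call of *GATA6* with BMP in KO cells was lost in 8 of 25, among them limma-voom (adjusted p = 0.0524) and log2(RPKM + 1) with no filter (adjusted p = 0.0871). The replicate block alone, by numbers that may or may not pair the libraries, left 2, 4, 2, 0 and 0 factors called in the 5 comparisons, as without it. *FOXA1* was not tested with at least 10 counts in every library, and DESeq2 gave it no adjusted p in 4 comparisons. For the low counts of *FOXA1*, *GATA3*, *HNF4A* and *NKX2-1*, depth sets the limit. The alternatives for genes of the other lists were added after the data were seen.

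The counts over all genes, which stand beside those of the factors, moved more. With BMP in WT cells, 674 genes became 366 without WT BMP-on replicate 1, 425 and 405 without replicates 2 and 3, 420 without WT BMP-off replicate 2, 1118 without KO BMP-off replicate 2 and 1343 with the GC correction. In KO cells 3777 became 2314 without KO BMP-on replicate 1. Between genotypes with BMP-on, 630 became 326 to 392 without any one BMP-on library, 862 without KO BMP-off replicate 2 and 1237 with only the groups compared. With BMP-off, 7 became 2 without WT BMP-off replicate 2, 40 without WT BMP-off replicate 1, 50 without KO BMP-off replicate 3, 36 with DESeq2, 83 with the GC correction and 233 with no filter. The 16 interactions became 236 without WT BMP-off replicate 1, 220 without KO BMP-off replicate 3, 4 to 8 without each of the other libraries except KO BMP-off replicate 2 (14), 153 with DESeq2, 156 with the GC correction and 318 with no filter.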
